A study of Mus musculus with 8 samples.

Results

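The genes described here make and quality-control the proteins that enter the endoplasmic reticulum (ER) of granulocytic myeloid-derived suppressor cells (Gr-MDSCs), immature neutrophil-like cells that accumulate in tumors. They are 51 listed genes with known roles in ER targeting, translocation, N-glycosylation, folding, the unfolded protein response and ER-associated degradation (ERAD). The list was written with earlier results of these data known, so its counts beside those of all genes describe it and do not test it. The probe set that stands for each gene was picked by its signal. Of the 51 genes, 50 had a probe set of their own on the array, and all 50 passed the filter on low signal, among 14237 genes tested of 18193 on the array. The remaining gene, Sec61g, was read only by a probe set shared with other genes and stands apart from every count below. Where several probe sets read a gene alone, the brightest by its mean over the 8 arrays was used.

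RNA was taken from Gr-MDSCs of prostate tumors of CPPSML mice, males aged 12-16 weeks that carry PB-Cre+, the floxed alleles PtenL/L, p53L/L and Smad4L/L, and as reporters mTmGL/+ together with LSL-LucL/+. In them a probasin promoter drives Cre in the prostate epithelium, so the deletions are directed to the tumor epithelium. All mice were castrated once tumors measured 150 mm3 and then ate an enzalutamide diet for 4 weeks. The cells were separated by density medium and magnetic beads and treated ex vivo for 6 h with DMSO (4 arrays, replicates 2 to 5), 0.1 uM Dactolisib, a dual PI3K and mTOR inhibitor (2 arrays), or 0.1 uM Dasatinib, a Src and Abl family kinase inhibitor (2 arrays). No source used here says whether arrays of a group came from separate mice or cultures, so p-values measure only the spread between these arrays, which may be technical.

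Proteins destined for secretion or for membranes are caught at the ribosome by the signal recognition particle (SRP) and handed to the Sec61 channel. While they pass through it, signal peptidase removes the signal sequence and oligosaccharyltransferase (OST) attaches a preassembled sugar tree to asparagine. Lumenal chaperones then fold the chain, ERAD sends failed products to the proteasome, and the unfolded protein response adjusts this capacity. Neutrophil-lineage cells use the route to load their granule proteins and surface receptors.

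The 8 arrays fell into 3 sets by their correlation over all tested probe sets, and the sets were the same when the ER genes and the cell type markers were left out of the clustering. Set A held Dactolisib 1, DMSO 2 and DMSO 4, set B held Dactolisib 2, Dasatinib 2 and DMSO 3, and set C held Dasatinib 1 and DMSO 5. All 12 measured granulocyte markers had signal on every array, and their median log2 level was 11.09 to 11.50 in set A, 10.62 to 10.71 in set C and 10.09 to 10.42 in set B. S100a8 varied little (13.53 to 13.85), whereas Ltf ran from 9.29 to 12.94 and Ngp from 6.70 to 10.45. The median log2 signal of 13 epithelial markers was highest in set C, at 11.51 to 11.53, against 8.70 to 8.94 in set A and 6.81 to 7.18 in set B. That of 9 seminal vesicle and prostate secretory markers was 8.35 to 9.21 in set C and 2.72 to 2.79 on the other arrays. Not every marker of that list was high in set C. Pbsn (probasin) read 2.62 on DMSO 5 and 2.44 on Dasatinib 1, and Msmb 2.62 and 3.16. Svs6 and Svs3a stood out on DMSO 5 only, at 6.48 and 5.88, against 2.68 and 3.83 on Dasatinib 1. The median of 12 fibroblast markers was 7.09 to 7.57 in set C, 6.56 to 6.79 in set A and 5.18 to 5.49 in set B. That of 13 monocyte and macrophage markers was 7.99 to 8.04, 7.32 to 7.45 and 7.27 to 7.44 in the same order. Single markers went other ways, as Csf1r was lowest in set C (11.43 and 11.72) and Col3a1 on Dasatinib 1 (8.67) lay below set A. In bulk RNA, fewer cells of a type and less RNA per cell cannot be told apart.

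The ER genes followed these sets. Both set C arrays read above the other 6 in 31 of the 50 genes, against 24.6% of all tested genes, and below them in 3, against 29.4%. The median difference of set C from the other arrays was 0.39 (log2) over the 50 genes and -0.11 over all genes. OST stood highest, with a median difference of 1.33 and 8 of its 9 genes above the other arrays, and all 5 signal peptidase genes were above them as well (median 0.49). The 6 listed ERAD genes ran the other way, with a median of -0.26, and include the 3 genes lower on both set C arrays, Herpud1, Edem1 and Derl1. Sel1l, Syvn1 and Derl2 differed by only -0.15, -0.08 and -0.04, near the median of all genes. The median of 24 further ERAD genes was 0.08, so the direction did not extend to ERAD as a whole. The part of epithelial, secretory, fibroblast or macrophage RNA in these differences was not tested.

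**Figure D1:**
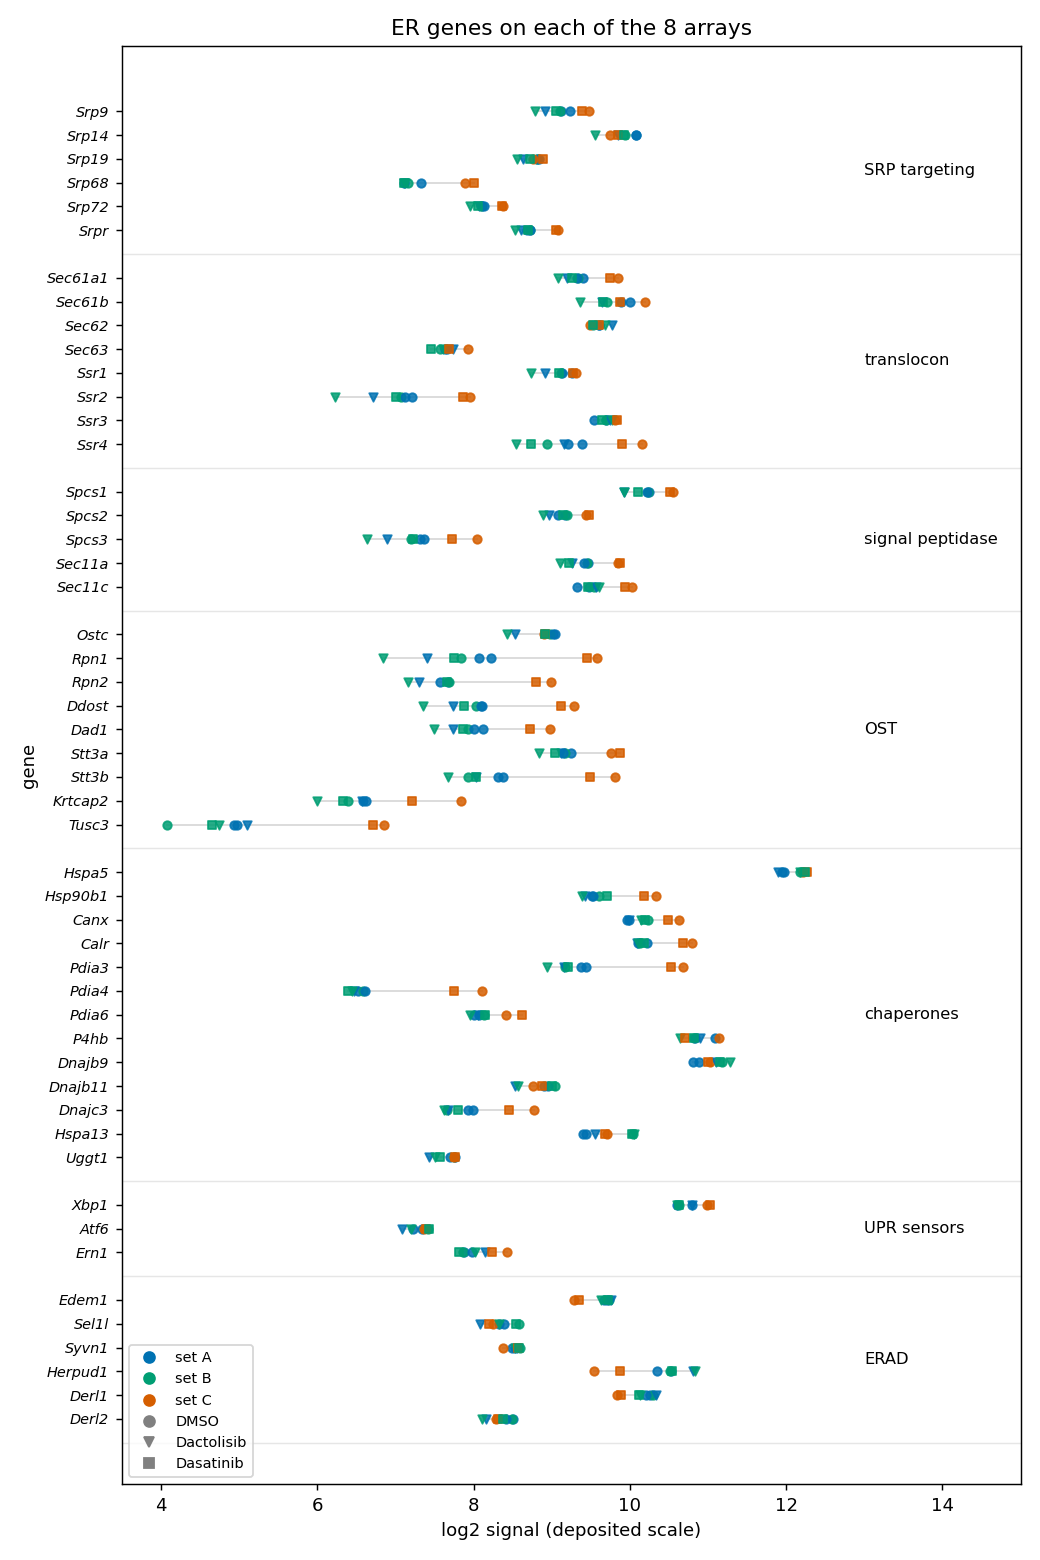
Log2 signal (horizontal axis) of each of the 50 ER genes (vertical axis, grouped by role) on each of the 8 arrays; colours stand for array sets, shapes for treatments, and the grey line spans the lowest to the highest array. The orange set C points lie to the right in 31 of 50 genes, most widely in OST, and to the left in Herpud1, Edem1 and Derl1.

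The comparison of Dactolisib with DMSO asked which ER genes differ after PI3K and mTOR inhibition. Within array sets the genes that fell were Rpn1, Ostc, Ddost, Rpn2 and Dad1 of OST, Ssr2 of the translocon, Spcs3 of signal peptidase, the chaperone gene Dnajb11 and the ERAD gene Derl2, and none rose. The median difference by role ran from -0.37 in OST to 0.043 in the stress regulators, with -0.25 in signal peptidase, -0.23 in the translocon, -0.18 in SRP, -0.11 in the chaperones and -0.0091 in ERAD. Both Dactolisib arrays read below all 4 DMSO arrays in 26 of the 50 ER genes, against 10.8% of all tested genes, and above them in 2 (Sec62 and Herpud1), against 11.1%. With DMSO 5 left out, the counts were 28 (16.8% of all genes) and 5 (13.3%). Against the mean of the DMSO arrays of their own set, both Dactolisib arrays were lower in 34 genes (35.4% of all genes) and higher in 9 (31.6%).

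In the unpaired fit without covariates, limma called 0 of the 50 genes at an adjusted p under 0.05, as it did over all genes (0.0% in each direction), and the lowest adjusted p of an ER gene was 0.775. At an unadjusted p under 0.05, 11 were lower (3.72% of all genes) and 0 higher (2.73%), and the methods' t-test gave 9 lower and 1 higher at that level and 0 after adjustment. With the array set as a block, 9 ER genes fell (4.66% of all genes) and 0 rose (2.24%). At an unadjusted p under 0.05 that fit had 24 lower (15.1% of all genes) and 3 higher (9.17%). The median difference of the 50 genes was -0.28 without the block and -0.19 with it, against 0.0096 and -0.0017 over all genes. Set C holds no Dactolisib array and adds nothing to the blocked difference, which leaves 2 residual degrees of freedom. Leaving out Dactolisib 1, Dactolisib 2 or DMSO 3 from the blocked fit left 0 ER genes called, without DMSO 2 there were 8 lower and Herpud1 higher, and without DMSO 4 there were 8 lower. Derl2 was the gene lost both without DMSO 2 and without DMSO 4. The fits without Dactolisib 2 and without DMSO 3 are the same fit, since set B then holds no contrast and only Dactolisib 1 is compared.

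Cell type markers were also set against their own set's DMSO mean. Of all tested genes, 35.4% were below it on both Dactolisib arrays and 31.6% above. Both Dactolisib arrays were below their own set's DMSO mean in 10 of 12 granulocyte markers (1 was above), in 10 of 13 monocyte and macrophage markers (3 above) and in 6 of 13 epithelial markers (0 above). The median own-set difference of the epithelial markers was -0.11 on Dactolisib 1 and -0.09 on Dactolisib 2, that of the granulocyte markers -0.07 and -0.11, and that of the monocyte and macrophage markers -0.16 and -0.12. Their part in the ER differences was not tested. The difference between 3′ and 5′ control probe sets of Actb, a sign of RNA integrity, was 0.15 on Dactolisib 2 and between 0.026 and 0.11 on the other arrays. In Gapdh, the other control, Dactolisib 2 did not stand apart (-0.084). There Dasatinib 1 was lowest at -0.19, and the remaining arrays lay between -0.11 and -0.038.

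**Figure D2:**
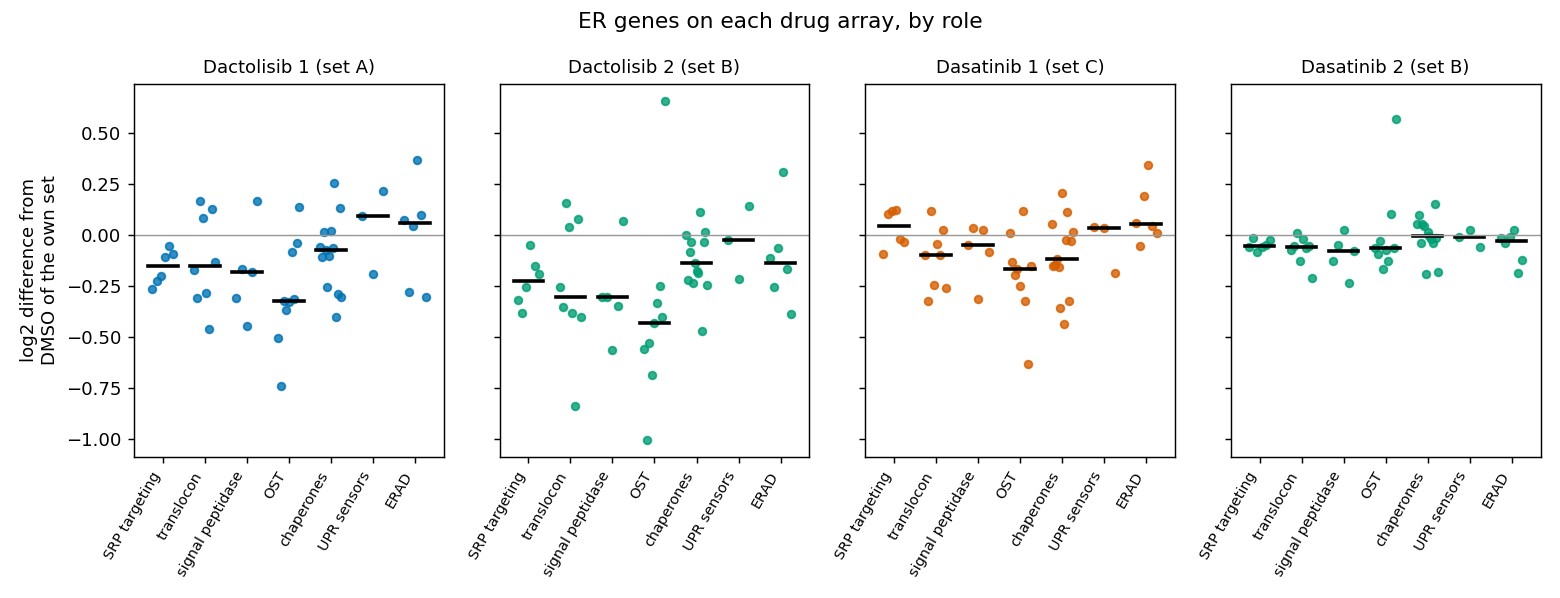
Log2 difference of each ER gene (point) on each drug array from the mean of the DMSO arrays of its own set (vertical axis), by role (horizontal axis), with the median of the role as a bar. On Dactolisib 1 and Dactolisib 2 the lowest median is that of OST, at -0.32 and -0.43, and on Dasatinib 1 it is also that of OST, at -0.16, while on Dasatinib 2 the medians lie between -0.075 and -0.0013.

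OST, the enzyme complex that transfers the sugar tree, had 5 of 9 genes lower within array sets, and 6 of 9 read below all 4 DMSO arrays, against 4 of 5 for signal peptidase and 4 of 6 for SRP on the latter measure. Rpn1 (ribophorin I), a subunit that helps present substrates to the enzyme, read 7.40 and 6.84 under Dactolisib (replicates 1 and 2), 9.45 and 7.75 under Dasatinib (1 and 2), and 8.22, 7.84, 8.06 and 9.58 on DMSO 2 to 5. The Dactolisib arrays were the lowest of all 8, and the 2 set C arrays lay more than 1 unit above the rest. Within array sets Rpn1 fell by 0.85 ± 0.10 (log2 ± SE, limma, adjusted p = 0.00996), 1.80-fold lower on the linear scale, against -1.30 ± 0.50 without the block (adjusted p = 0.775), and its 4 other tested probe sets differed by -0.75 to -0.98. Ostc, which docks the OST at the translocon, read 8.53 and 8.43 under Dactolisib, 8.92 and 8.92 under Dasatinib, and 9.05, 8.98, 9.02 and 8.91 under DMSO. It was the OST gene with the smallest difference of set C from the other arrays (0.09), its Dactolisib and DMSO arrays did not overlap, and it fell by 0.52 ± 0.08 (adjusted p = 0.0156). Ddost, a core subunit without catalytic activity, read 7.74 and 7.35, then 9.12 and 7.87, then 8.10, 8.04, 8.10 and 9.28 in the same order, and Rpn2 (ribophorin II) 7.30 and 7.16, 8.80 and 7.66, and 7.68, 7.69, 7.57 and 8.99. Both were lowest on the Dactolisib arrays and more than 1 unit above the other arrays in set C. Ddost fell by 0.50 ± 0.10 (adjusted p = 0.0274) and Rpn2 by 0.41 ± 0.09 (adjusted p = 0.0399). Dad1, a small subunit named as a defender against cell death, fell by 0.37 ± 0.08 (adjusted p = 0.0444), from 8.13, 7.93, 8.01 and 8.98 under DMSO to 7.74 and 7.50, with 8.73 and 7.86 under Dasatinib. Without the block, where no gene was called, the differences of Ddost, Rpn2 and Dad1 were -0.84 ± 0.39, -0.75 ± 0.42 and -0.64 ± 0.31, each over 1.5 times the value within sets.

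The catalytic subunits did not pass the test. Stt3a, the catalytic subunit of the translocon-bound OST, read 9.11 and 8.84 under Dactolisib, 9.88 and 9.04 under Dasatinib, and 9.25, 9.17, 9.14 and 9.76 under DMSO, with Dactolisib below every DMSO array (-0.19 ± 0.09, adjusted p = 0.269). Stt3b, the catalytic subunit that also glycosylates after translocation, differed by -0.28 ± 0.08 (adjusted p = 0.0748). Krtcap2, an accessory subunit of the Stt3a complex, read 6.57 and 5.99 under Dactolisib, 7.22 and 6.33 under Dasatinib, and 6.63, 6.39, 6.59 and 7.85 under DMSO. The Dactolisib 1 value lay between DMSO values. Tusc3, an oxidoreductase subunit, gave 0.36 ± 0.12 within array sets (adjusted p = 0.125) and -0.30 ± 0.72 without the block, and DMSO 3 was its lowest array at 4.08.

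Among 8 translocon genes 1 fell within array sets. Ssr2, a subunit of the translocon-associated protein complex that assists insertion, read 6.72 and 6.23 under Dactolisib, 7.86 and 7.01 under Dasatinib, and 7.22, 7.07, 7.13 and 7.95 under DMSO. The Dactolisib arrays were the lowest, and it fell by 0.62 ± 0.10 (adjusted p = 0.0209), 1.54-fold lower. Sec61b, a small channel subunit, read 9.64 and 9.36, against 10.01, 9.71, 9.89 and 10.19 under DMSO and 9.87 and 9.66 under Dasatinib (-0.32 ± 0.08, adjusted p = 0.0601). Ssr1, another translocon-associated subunit, read 8.91 and 8.73 under Dactolisib, against 9.27, 9.12, 9.13 and 9.31 under DMSO and 9.27 and 9.10 under Dasatinib (-0.33 ± 0.09, adjusted p = 0.0652). In both the Dactolisib arrays lay below every DMSO array without passing the test. Sec61a1, the channel itself, read 9.20 and 9.08 under Dactolisib, 9.75 and 9.26 under Dasatinib, and 9.40, 9.34, 9.33 and 9.84 under DMSO (-0.21 ± 0.08, adjusted p = 0.171). Sec62 and Sec63, partners of the channel in import after translation, and Ssr3 gave positive differences of 0.16, 0.06 and 0.11, and Ssr4 gave -0.25.

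Signal peptidase, which cuts off signal sequences, had 1 called gene of 5. Spcs3, a subunit needed for its activity, read 6.89 and 6.64 under Dactolisib, 7.73 and 7.23 under Dasatinib, and 7.31, 7.20, 7.36 and 8.04 under DMSO. Dactolisib was lowest, and Spcs3 fell by 0.49 ± 0.08 (adjusted p = 0.0192). Spcs1 read 9.93 and 9.93 against 10.25, 10.24, 10.22 and 10.55 under DMSO and 10.51 and 10.11 under Dasatinib (-0.31 ± 0.08, adjusted p = 0.0585). Spcs2 read 8.96 and 8.89 under Dactolisib, 9.48 and 9.14 under Dasatinib, and 9.17, 9.19, 9.09 and 9.44 under DMSO (adjusted p = 0.153). The catalytic subunit Sec11a read 9.26 and 9.11 under Dactolisib, 9.87 and 9.22 under Dasatinib, and 9.46, 9.46, 9.42 and 9.85 under DMSO (adjusted p = 0.12). These 4 genes all had both Dactolisib arrays below every DMSO array, whereas Sec11c, the alternative catalytic subunit, did not (0.13 ± 0.09).

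No SRP gene of 6 passed the test by the probe set used, and all 6 were below their own set's DMSO mean on both Dactolisib arrays. Srp14, part of the domain that pauses translation, read 9.85 and 9.56 under Dactolisib, 9.85 and 9.93 under Dasatinib, and 10.08, 9.94, 10.08 and 9.74 under DMSO, so its groups overlapped (-0.29 ± 0.08, adjusted p = 0.0768). Of its dimmer probe sets 2 were called, at -0.42 ± 0.09 (adjusted p = 0.0343) and -0.37 ± 0.09 (adjusted p = 0.049). Its partner Srp9 read 8.92 and 8.79, against 9.12, 9.11, 9.23 and 9.47 under DMSO and 9.38 and 9.05 under Dasatinib, without overlap between Dactolisib and DMSO (-0.29 ± 0.08, adjusted p = 0.0841). Srp19, which helps assemble the particle, read 8.63 and 8.55 under Dactolisib, 8.89 and 8.73 under Dasatinib, and 8.81, 8.81, 8.84 and 8.77 under DMSO. The SRP receptor gene Srpr read 8.61 and 8.53 under Dactolisib, 9.05 and 8.70 under Dasatinib, and 8.69, 8.72, 8.72 and 9.09 under DMSO. In both, Dactolisib lay just below the DMSO range, and the adjusted p-values were 0.135 and 0.353.

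**Figure D3:**
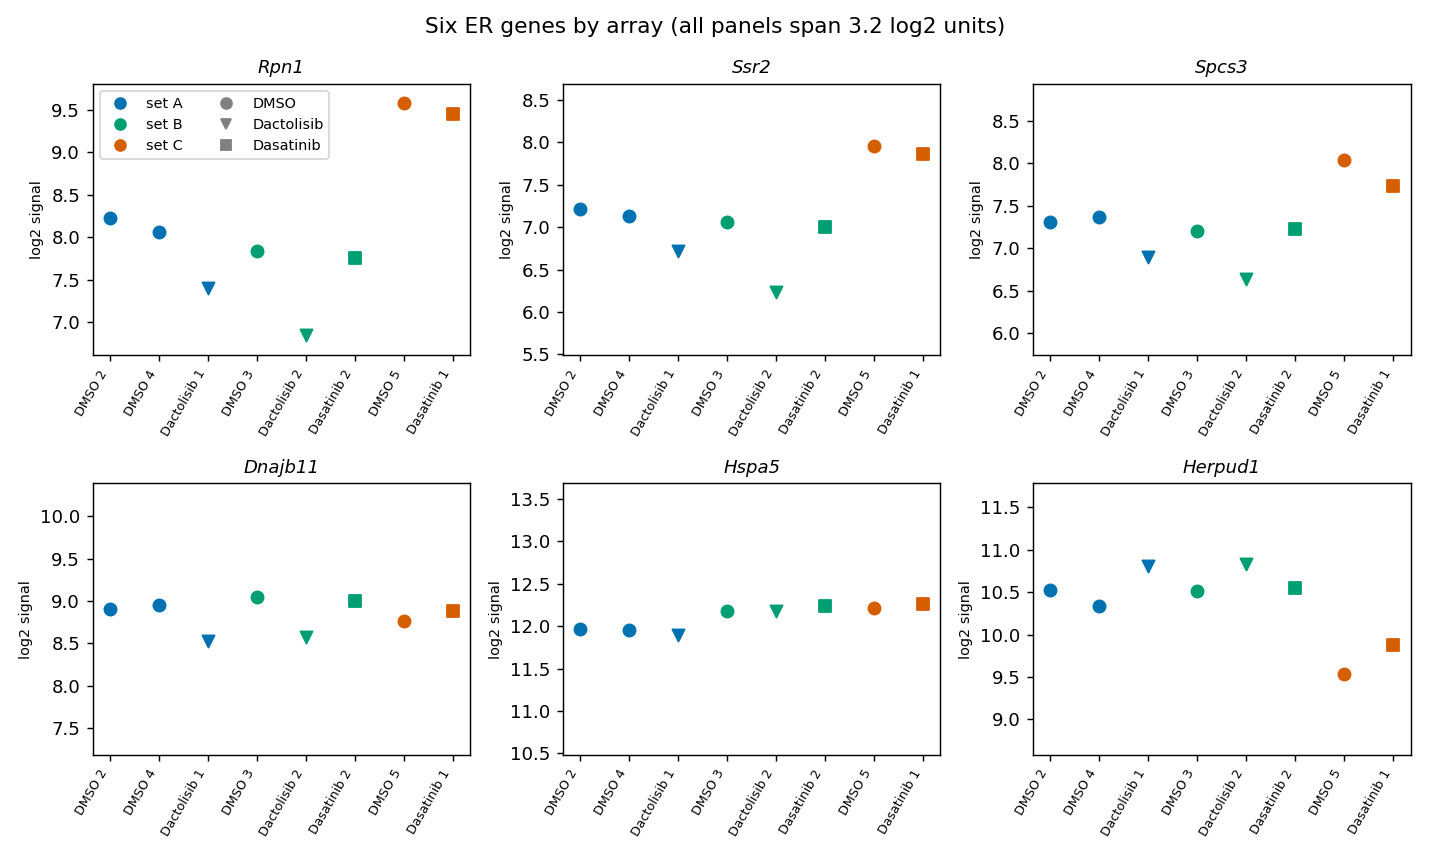
Log2 signal (vertical axis) of 6 ER genes on each array (horizontal axis, ordered by array set); colours stand for array sets, shapes for treatments, and each panel spans 3.2 log2 units. In Rpn1, Ssr2, Spcs3 and Dnajb11 the Dactolisib triangle is below the DMSO circles of its set, in Hspa5 it is level with them, and in Herpud1 it is above.

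Of 13 chaperone and folding genes 1 fell by the probe set used. Dnajb11 (ERdj3), a co-chaperone of BiP, read 8.53 and 8.57 under Dactolisib, 8.88 and 9.002 under Dasatinib, and 8.91, 9.04, 8.95 and 8.76 under DMSO, with no overlap, and fell by 0.43 ± 0.08 (adjusted p = 0.0243). Hspa5, which encodes BiP, the main lumenal chaperone and a standard readout of ER stress, read 11.90 and 12.18 under Dactolisib, 12.27 and 12.24 under Dasatinib, and 11.97, 12.18, 11.95 and 12.21 under DMSO. Its arrays followed the sets, and within them the Dactolisib difference was -0.03 ± 0.08 with a 95% interval from -0.21 to 0.15 (adjusted p = 0.846). Uggt1, the sensor that reglucosylates misfolded glycoproteins, read 7.43 and 7.50 under Dactolisib, 7.76 and 7.57 under Dasatinib, and 7.70, 7.75, 7.77 and 7.74 under DMSO. Pdia3 (ERp57), the disulfide isomerase of glycoproteins, read 9.15 and 8.94 under Dactolisib, 10.53 and 9.21 under Dasatinib, and 9.44, 9.17, 9.37 and 10.68 under DMSO. Dactolisib was below every DMSO array in both, with differences of -0.28 ± 0.08 (adjusted p = 0.0827) and -0.25 ± 0.08 (adjusted p = 0.108). Dnajb9 (ERdj4), a BiP co-chaperone induced by ER stress, gave 0.19 ± 0.08 (adjusted p = 0.206), from 11.10 and 11.29 under Dactolisib against 10.81, 11.17, 10.88 and 11.02 under DMSO and 10.997 and 11.15 under Dasatinib. The other 8 genes of the role, which include the lectins Canx and Calr and the BiP partner Hsp90b1, ranged from -0.18 (Dnajc3) to 0.08 (Hspa13). For 2 genes the call depended on the probe set: dimmer probe sets of Dnajc3, a co-chaperone of BiP, gave -0.58 ± 0.10 (adjusted p = 0.0225) and -0.49 ± 0.09 (adjusted p = 0.024), and 1 of Uggt1 gave -0.46 ± 0.08 (adjusted p = 0.0212).

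The promoters of these genes were read because many ER chaperone genes carry the ER stress element (ERSE), the letters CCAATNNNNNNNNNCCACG, through which ATF6 and XBP1 act. In the 250 bases upstream of the RefSeq start (GRCm38.p6), searched on both strands, it was found in 7 of the 40 ER genes with a promoter entry (17.5%), against 35 of 27025 genes (0.13%). It was present in 6 of 12 chaperone genes, in 1 of 5 ERAD genes (Syvn1) and in 0 of 7 OST genes. The shorter box CCAAT, which the ERSE contains, occurred in 67.5% of the ER genes and 37.5% of all genes, CCACG in 62.5% and 31.0%, and TGACG, a core of another stress element, in 40.0% and 19.8%. Windows of the motif with 20 bases on each side are shown for genes of both roles, written 5′ to 3′ on the strand of the gene, with the boxes (or their reverse complements, in Calr) in capitals. They come from chr2:34772005-34772063 (Hspa5, plus strand), chr8:84847055-84847113 (Calr, minus strand), chr12:17266471-17266529 (Pdia6, plus strand) and chr19:6046512-6046570 (Syvn1, plus strand).
Hspa5: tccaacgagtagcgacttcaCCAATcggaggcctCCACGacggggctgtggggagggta
Calr: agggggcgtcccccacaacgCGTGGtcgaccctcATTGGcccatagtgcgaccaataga
Pdia6: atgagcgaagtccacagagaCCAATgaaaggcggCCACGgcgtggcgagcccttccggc
Syvn1: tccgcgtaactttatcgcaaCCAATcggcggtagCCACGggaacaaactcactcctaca

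The 7 genes with the element were Hspa5, Hsp90b1, Calr, Canx, Pdia6, Dnajc3 and Syvn1. Their Dactolisib differences within array sets ran from -0.18 to -0.00045, with a median of -0.06 and 0 called by the probe sets used. The lowest of them was Dnajc3, whose dimmer probe sets were called at -0.58 and -0.49. The 32 measured ER genes whose window lacks these letters ran from -0.85 to 0.34, with a median of -0.25 and 6 called lower. The called genes Ostc, Ssr2 and Spcs3 had no promoter entry and are in neither group. As 6 of the 7 genes with the element are chaperone genes, the groups also differ in role, and the motif was not tested apart from role. A match is a stretch of letters, and its use in these cells was not measured.

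The regulators of the unfolded protein response gave 0 calls of 3. Xbp1, the factor spliced by the sensor IRE1, read 10.80 and 10.61 under Dactolisib, 11.03 and 10.62 under Dasatinib, and 10.80, 10.63, 10.61 and 10.99 under DMSO, and the groups overlapped (0.04 ± 0.09, adjusted p = 0.829). Ern1, which encodes IRE1, read 8.14 and 8.01 under Dactolisib, 8.24 and 7.81 under Dasatinib, and 7.87, 7.87, 7.98 and 8.42 under DMSO (0.19 ± 0.08, adjusted p = 0.218). Its dimmer tested probe sets had the opposite sign, at -0.30 ± 0.09 (adjusted p = 0.0829) and -0.03 ± 0.09 (adjusted p = 0.883), so the direction for Ern1 depended on the probe set. Atf6, the membrane-bound sensor and factor, read 7.09 and 7.19 under Dactolisib, 7.40 and 7.44 under Dasatinib, and 7.34, 7.41, 7.22 and 7.36 under DMSO. Its Dactolisib arrays lay below all others (-0.20 ± 0.08, adjusted p = 0.187). The array reads total Xbp1 RNA, and the spliced form was not analysed here.

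In ERAD 1 of 6 genes fell. Derl2, a channel component for retrotranslocation, read 8.16 and 8.11 under Dactolisib, 8.31 and 8.37 under Dasatinib, and 8.50, 8.49, 8.42 and 8.29 under DMSO, without overlap, and fell by 0.34 ± 0.08 (adjusted p = 0.0499). Herpud1, a stress-induced scaffold of the ubiquitin ligase Hrd1, read 10.80 and 10.83 under Dactolisib, 9.88 and 10.55 under Dasatinib, and 10.53, 10.52, 10.34 and 9.54 under DMSO. Both Dactolisib arrays lay above all others, and the difference of 0.34 ± 0.09 missed the threshold (adjusted p = 0.0648), with 0.37 ± 0.10 from its second probe set (adjusted p = 0.068). Sel1l, the adaptor of Hrd1, read 8.08 and 8.32 under Dactolisib, 8.20 and 8.54 under Dasatinib, and 8.33, 8.58, 8.39 and 8.25 under DMSO (adjusted p = 0.0889). Derl1, the paralog of Derl2, read 10.33 and 10.13 under Dactolisib, 9.88 and 10.11 under Dasatinib, and 10.26, 10.30, 10.21 and 9.84 under DMSO (adjusted p = 0.952). The groups overlapped in both. Edem1, a mannosidase-like lectin, and Syvn1, which encodes Hrd1, gave -0.0046 and -0.00045, with Syvn1 at 8.56 and 8.53 under Dactolisib, 8.57 and 8.59 under Dasatinib, and 8.53, 8.59, 8.50 and 8.38 under DMSO.

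**Figure D4:**
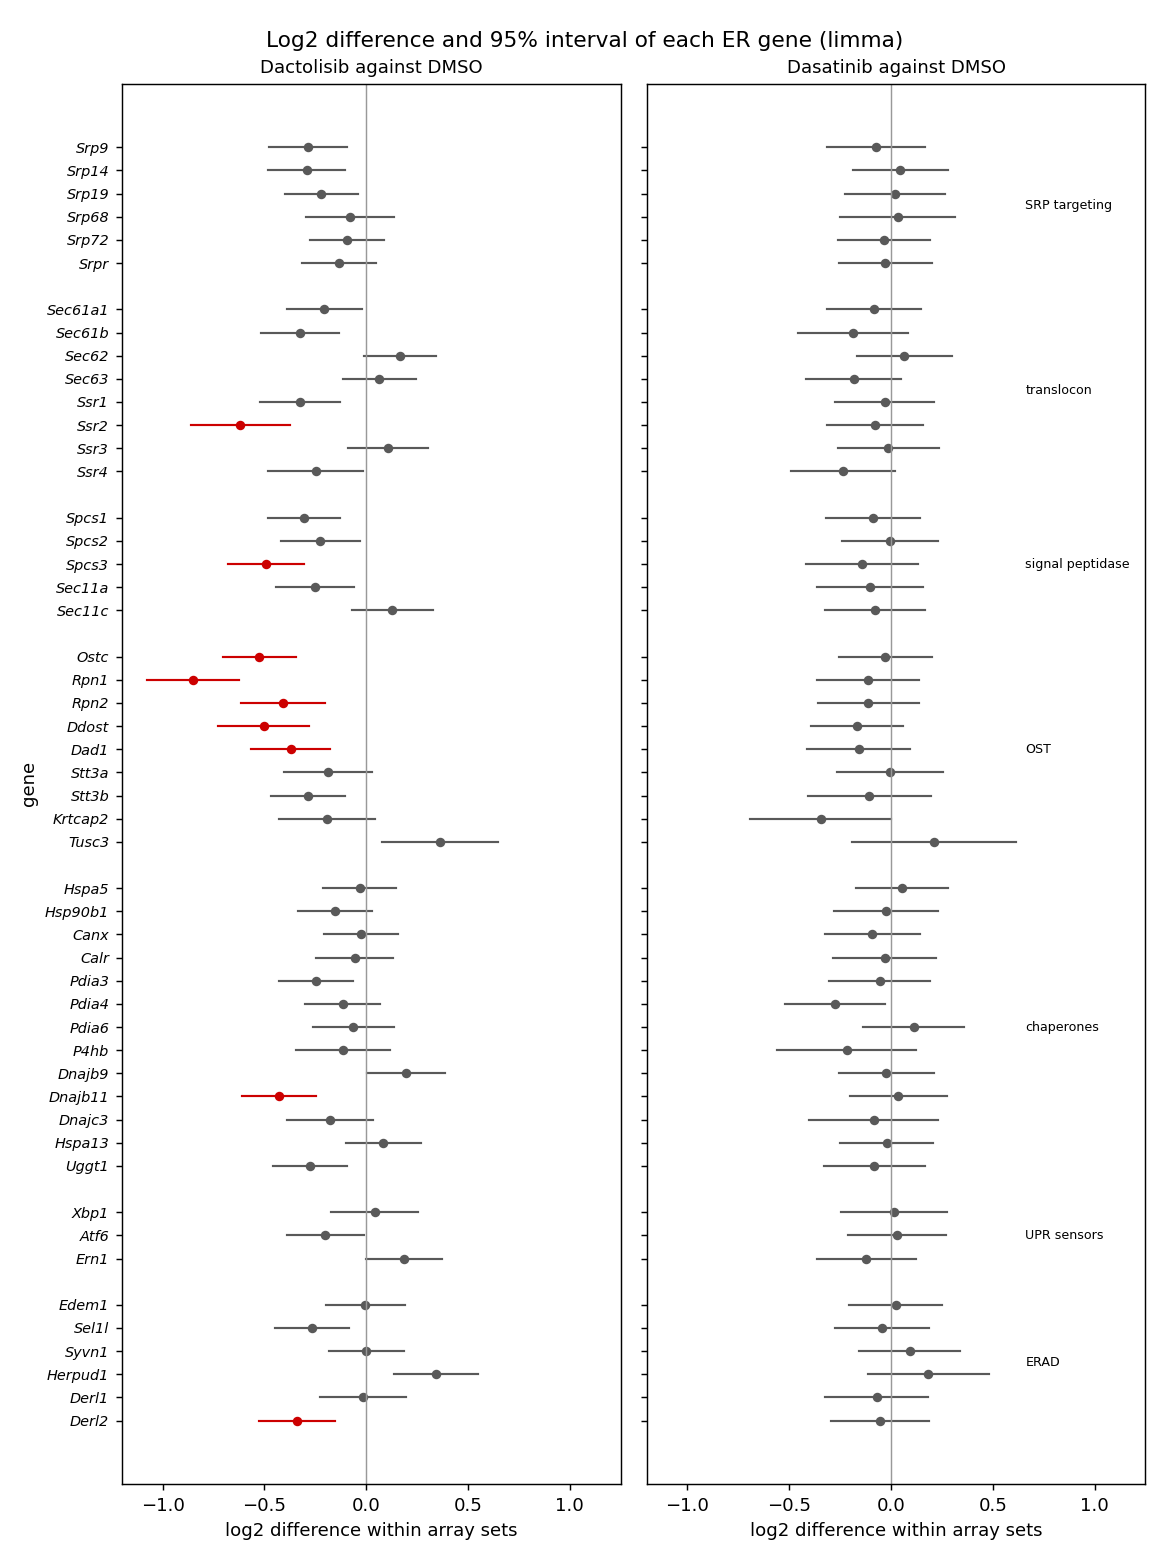
Log2 difference within array sets (horizontal axis) with its 95% limma interval (line) for each ER gene (vertical axis, grouped by role), for Dactolisib (left) and Dasatinib (right) against DMSO; red marks an adjusted p under 0.05. The 9 red genes are all lower under Dactolisib, 5 of them in OST, and none is red under Dasatinib.

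For Dactolisib against DMSO within array sets, second probe sets were tested for 38 of the genes. Of 72 such probe sets, 58 had the same sign as the one used, and of the 7 that belong to called genes all 7 had the same sign. The 4 of these that were called all read Rpn1, while those of Ostc (adjusted p = 0.075), Dad1 (0.118) and Derl2 (0.182) missed the threshold. A further 5 second probe sets, of 3 genes not counted as called (Dnajc3, Uggt1 and Srp14), were called lower and 0 higher.

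Other genes of the pathway, 131 listed and 124 tested, gave 10 lower and 4 higher within array sets under Dactolisib (4.66% and 2.24% of all genes) and 0 of either in the fit without the block, where 0.775 was the lowest adjusted p of the genes named here. Of 23 further translocation genes 5 fell. Ccdc47, part of a membrane-insertion complex at the translocon, fell by 0.96 ± 0.11 (adjusted p = 0.0102), Tram1, a translocating-chain associated protein, by 0.48 ± 0.08 (adjusted p = 0.0183), and Emc4, of the ER membrane insertase, by 0.48 ± 0.08 (adjusted p = 0.0215). In glycosylation and in folding 1 of 29 fell, below the share over all genes. They were Alg5, which makes the glucose donor of the sugar tree (-0.58 ± 0.08, adjusted p = 0.0119), and Cnpy4, a chaperone of Toll-like receptors (-0.55 ± 0.11, adjusted p = 0.0299). In ERAD 2 of 24 fell, the ubiquitin ligase gene Rnf5 (-0.50 ± 0.11, adjusted p = 0.0419) and Edem3, a mannosidase gene (-0.41 ± 0.09, adjusted p = 0.042). Of 19 further stress-response genes 4 rose and 1 fell, and by sign alone 11 were above 0 and 8 below. Ddit3 (CHOP), a stress-induced transcription factor, rose by 0.57 ± 0.08 (adjusted p = 0.0144), Traf2, an adaptor of IRE1, by 0.44 ± 0.08 (adjusted p = 0.0221), and Atf3 by 0.46 ± 0.08 (adjusted p = 0.0229). Atf4, the factor translated when eIF2 is phosphorylated, rose as well (0.33 ± 0.08, adjusted p = 0.049), and Atf6b, the paralog of Atf6, fell by 0.49 ± 0.10 (adjusted p = 0.0313). Each of these values came from the brightest probe set of the gene, and dimmer probe sets of these further genes were not compared.

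Dasatinib was compared with the same 4 DMSO arrays. With limma 0 of the 50 ER genes were called in either fit, against 0.0% of all genes. At an unadjusted p under 0.05 there were 0 without the block, where the methods' t-test also gave 0, and 1 lower (2.1% of all genes) and 0 higher (1.86%) within array sets. Both Dasatinib arrays lay below all 4 DMSO arrays in 1 gene, P4hb (2.47% of all genes), and above them in 1, Hspa5 (1.66%), and below their own set's DMSO mean in 23 (22.8%) and above it in 5 (21.9%). Fibroblast markers were below it on both Dasatinib arrays in 7 of 12 and T cell markers in 6 of 8, and on Dasatinib 1 the median own-set difference was -2.05 for the seminal vesicle and prostate secretory markers and -0.51 for the fibroblast markers. The T cell markers read low, with medians of 5.32 to 5.65 over the arrays. Of these 8 markers 7 passed the filter on low signal, as did 11 of the 12 fibroblast markers. The part of these markers in the ER values was not tested. The gene with an unadjusted p under 0.05 was Pdia4 (ERp72), a disulfide isomerase, at 7.75 and 6.39 under Dasatinib, 6.47 and 6.45 under Dactolisib, and 6.53, 6.58, 6.61 and 8.11 under DMSO. Each Dasatinib array lay below its own set's DMSO array (-0.27 ± 0.10, adjusted p = 0.85), while set C was more than 1 unit above the other sets.

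The largest negative Dasatinib difference was that of Krtcap2, -0.34 ± 0.15, and the largest positive that of Tusc3, 0.21 ± 0.17, both of OST. In each the Dasatinib arrays were unlike. From the DMSO array of its set, Krtcap2 differed by -0.63 on Dasatinib 1 and -0.06 on Dasatinib 2. Tusc3 differed by -0.15 and 0.57, the latter against DMSO 3 at 4.08. The role medians within array sets ran from -0.11 in OST to 0.016 in the stress regulators. Without the block that of OST was 0.13, the median of all 50 genes was 0.038 instead of -0.050, and 27 of the 50 genes had the opposite sign. Ssr4, a translocon-associated subunit, read 9.90 and 8.73 under Dasatinib, 9.16 and 8.54 under Dactolisib, and 9.39, 8.94, 9.21 and 10.15 under DMSO (-0.23 ± 0.11). Sec63, a J-domain partner of BiP at the channel, read 7.69 and 7.45, 7.73 and 7.61, and 7.66, 7.57, 7.64 and 7.93 in the same order (-0.18 ± 0.10). P4hb, protein disulfide isomerase, read 10.70 and 10.82, 10.90 and 10.64, and 11.09, 10.82, 10.83 and 11.14 (-0.22 ± 0.14). By the probe sets used, only Sec63 and Ssr4 of these 3 genes had both Dasatinib arrays below the DMSO array of their set by more than 0.1. All 3 adjusted p-values were 0.85. The dimmer probe sets of Ssr4 gave -0.30 and 0.02, and 0.25 and -0.10, on Dasatinib 1 and Dasatinib 2. Those of Sec63 ran from -0.36 to 0.08 on Dasatinib 1 and from -0.16 to 0.09 on Dasatinib 2.

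The drugs were tested against each other in 1 fit of all 8 arrays, since both had been set against the same DMSO arrays. With limma 0 ER genes were called with or without the block (0.0% of all genes). At an unadjusted p under 0.05, 4 were lower under Dactolisib without the block (2.4% of all genes) and 0 higher (1.44%), and within array sets 10 were lower (9.78%) and 1 higher, Ern1 (5.07%). The Ern1 value is from the probe set used, and its dimmer tested probe sets gave negative Dactolisib differences from DMSO. Rpn1 came closest, lower under Dactolisib by 0.79 ± 0.12 (95% interval -1.08 to -0.51, adjusted p = 0.0836), followed by Ostc (-0.50 ± 0.10, adjusted p = 0.106), Ssr2 (-0.62 ± 0.13, adjusted p = 0.123) and Dnajb11 (-0.45 ± 0.10, adjusted p = 0.133). Hspa5 differed by -0.08 between the drugs, with an interval from -0.30 to 0.15. The median over the 50 genes was -0.35 without the block and -0.14 within array sets. A difference between the drugs in any single ER gene therefore did not pass the test at this number of arrays.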

How the data were processed

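The authors hybridised biotin-labelled RNA of each sample to an Affymetrix mouse array and deposited the log2 signals of 45101 probe sets, used here as given. Array medians were 4.82 to 4.87. The submitters' processing notes name MAS5 and the study's methods another package, so the summary method is unsettled, and so is the RNA extraction. Treatments follow the sample titles, because the treatment field of the Dasatinib samples names Dactolisib. Probe sets were joined to genes by the platform annotation: 34958 had 1 gene (control probe sets included), 932 several and 9160 none. Those with a mean in the upper 66.7%, 30024 in all, were tested with limma 3.58.1 in R 4.3.3 (empirical Bayes, Benjamini-Hochberg over all tested probe sets, threshold 0.05). The methods give no covariate, so the fit without a block is the main one. The fit within array sets uses sets found from these same arrays by average linkage on 1 minus Pearson's correlation (lowest Spearman correlation within a set 0.982, highest between sets 0.972). Members and lists were chosen with earlier results of these data known. In each role, array values are given for up to 4 members with the lowest Dactolisib p within sets, up to 2 with the lowest Dasatinib p and the member with the highest mean. Of the other pathway genes up to 3 per list are named by the lowest p, and Atf4 and Atf6b were named after their values were seen. The calculation was tested on simulated data. The number of arrays limits the precision.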

Additional observations from a re-analysis of the deposited data

Results flagged for a closer look

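Of 35 ER genes whose array values were checked, 9 had DMSO 5 far above the other 3 DMSO arrays, by the ratio of its gap to the whole range of the group (Dixon's critical value 0.829 for 4 arrays). The ratios were 0.946 for Ddost, 0.944 for Pdia4, 0.921 for Spcs1, 0.916 for Rpn2, 0.912 for Srpr, 0.893 for Sec11a, 0.852 for Sec61a1, 0.837 for Krtcap2 and 0.829 for Stt3a. None had DMSO 5 far below or another DMSO array apart. Chance flags about 1 in 20 groups, and genes on 1 array are not independent. DMSO 5 is a set C array, and its values are given in the report beside those of Dasatinib 1.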

How the results depend on the processing

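Under Dactolisib the array set block gave 659 probe sets higher, 1260 lower and 9 ER genes lower, against 0 of each without it. It turned the sign of 7 of the 50 genes, among the 35 followed here Sec63 (0.065), Xbp1 (0.043), Syvn1 (-0.00045) and Derl1 (-0.014), quantile normalization that of Sec63 (0.028) and gene means that of Hspa5 (0.034). Under Dasatinib the block turned 27 of the 50, among the 14 followed here Srp14 (0.046), Spcs3 (-0.14), Sec11a (-0.10), Ddost (-0.17), Pdia4 (-0.27) and Herpud1 (0.18), quantile normalization Spcs3 (-0.028) and Sec11a (-0.032), 32 added before log2 Spcs3 (-0.0016), and gene means Srp9 (0.059), Sec11a (-0.0073) and Herpud1 (0.024). The drug against drug median moved to -0.14 with the block. Without DMSO 5, genes above all remaining DMSO arrays rose from 2 to 5. Leaving out 1 array at a time, with and without the block, gave under Dactolisib 0 to 1008 probe sets higher, 0 to 1846 lower, 0 to 1 ER genes higher and 0 to 9 lower. Derl1 ran from -0.16 to 0.18, Ern1 from -0.022 to 0.22, Hspa5 from -0.18 to 0.10, Sec63 from -0.087 to 0.084, Syvn1 from -0.064 to 0.077 and Xbp1 from -0.15 to 0.093. Under Dasatinib it gave 0 to 435 probe sets higher and 0 to 329 lower, a median of -0.13 to 0.23, and Ddost -0.51 to 0.74, Ern1 -0.22 to 0.20, Herpud1 -0.35 to 0.34, Krtcap2 -0.63 to 0.35, Pdia4 -0.57 to 0.80, Sec11a -0.32 to 0.33, Spcs3 -0.31 to 0.25, Srp14 -0.15 to 0.11, Srp9 -0.18 to 0.15, Ssr4 -0.69 to 0.47 and Syvn1 -0.0093 to 0.19. The higher probe set counts under Dasatinib came without Dasatinib 2 or DMSO 3, with 0 ER genes called. The drug against drug comparison gave 0 to 408 probe sets higher and 0 to 710 lower with 0 ER genes called, and a median of -0.44 to -0.088. The cause of these changes was not tested.

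The drugs share replicate numbers 1 and 2, whose deviations correlated at 0.559, but with 2 pairs the numbers do not show a pairing. The replicate block gave 0 called probe sets and a median of -0.35. No paired analysis was possible for a drug against DMSO because they share only 1 number.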

Other observations

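Sec61g, the remaining subunit of the Sec61 channel, was read by a probe set that it shares with Gm11575 and Gm10177, so its values cannot be assigned to 1 gene. That probe set read 9.23 and 9.06 under Dactolisib, 9.39 and 9.18 under Dasatinib, and 9.42, 9.12, 9.25 and 9.53 under DMSO.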
